A study of Mus musculus with 64 samples.

Results

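The Notch pathway was followed through the transposon insertions of 64 mice in 10 genes, which are the receptors Notch1, Notch2, Notch3 and Notch4, the ligand Jag1, the DNA-binding factor Rbpj, the coactivators Maml1, Maml2 and Maml3, and the ubiquitin ligase subunit Fbxw7. An insertion belonged to a gene where the deposited table named that gene beside it. This rule found 270 of the 385883 lines of the table, or 268 of the 299625 insertions counted here, in 8 of the 10 genes. Notch1 held 97 of these insertions, and the other genes held 171. No line named Fbxw7 or Notch4. By the RefSeq gene bodies of GRCm38, 438 insertions lay in 9 of the genes, with 67 PB insertions in Fbxw7 that the table lists under its neighbour Arfip1 and 22 SB insertions there under RP24-559D1.1. Notch4 had no insertion under either assignment. Both assignments are therefore given where they differ. The set was chosen by the numbers of Notch1 insertions, which were higher in tails than in tumours in an earlier analysis of these data, so those numbers are given here as a description without a test.

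Notch receptors are membrane proteins that are cut after they bind a ligand such as Jagged1 on a neighbouring cell. The freed intracellular domain enters the nucleus and joins RBPJ and a Mastermind-like (MAML) protein to switch on target genes, and FBXW7 marks the domain for degradation. Notch1 is required for T cell commitment and acts as a tumour suppressor in mouse skin, whereas Notch2 is required for marginal zone B cells. A transposon in a gene can disrupt it or, through its own promoter or splice sites, alter its transcript.

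All mice carried copies of an ITP transposon at a donor site together with a constitutive transposase gene at the Rosa26 locus, either PiggyBac (PB, Rosa26PB, labelled IMPB) or Sleeping Beauty (SB, Rosa26SB, labelled IMSB). The SB mice came from crosses homozygous for Blm m3, a hypomorphic allele of the Blm helicase, with ITP1-C or ITP2-M as the transposon line, while the PB mice were PB ITP mice described elsewhere whose Blm state is not spelled out in the sources used here. Ages were not given. Tumours came from 30 PB and 11 SB mice and tails from 12 PB and 11 SB mice, with 1 sample per mouse, all on a mixed strain background. The tumours were diffuse large B cell lymphomas by histology, and tails served as control tissue. Since DNA was sequenced, the cell types in a sample could not be checked against expression markers. The transposase was constitutive, and tails held insertions as well.

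Each line of the table is a junction between transposon and genome found by splinkerette PCR and sequencing, with its strand and its number of reads, which was at least 2. Lines at the same target site (TTAA for PB, TA for SB) of a sample were merged into 1 insertion, and the rate of a gene was given per 1000 insertions of the same sample. The samples held between 757 and 10800 insertions and between 55502 and 5721832 reads, with group medians between 3547.5 and 4361 insertions. In all, PB tumours held 156899 insertions, PB tails 48124, SB tumours 43813 and SB tails 50789, so counts of different groups do not compare as rates. A count of 0 over a whole group allows up to 3 insertions, which is 0.0191 per 1000 in PB tumours, 0.0623 in PB tails, 0.0591 in SB tails and 0.0685 in SB tumours. Reads were PCR products with no molecular identifiers and so do not count molecules, and these limits and the intervals given later cover counting error only. Any pair of PB samples shared a median of 10 target sites and at most 95, and any pair of SB samples a median of 4 and at most 54.

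Sample names had a joined form in all 11 SB tumours, in 7 of the SB tails, in 22 of the PB tumours and in 5 of the PB tails, and a separated form in the rest. As such a form can mark a batch, values within a form are given beside the main results.

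Notch1 lies on the minus strand of chr2:26457902-26503822 (mm10), has 34 exons and encodes 2531 codons, and offers 95 TTAA and 1593 TA sites. The target sites hit in the most samples, up to 4 per system with ties decided by reads, are shown because they carry the recurrence described below, on the strand of the gene, 5′ to 3′, with the target motif in capitals and 20 bases on each side.
PB site 2927 bp after the start, intron 2, chr2:26500875-26500918: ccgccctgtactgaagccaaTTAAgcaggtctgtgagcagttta
PB site at -4623 bp, upstream of the start, chr2:26508425-26508468: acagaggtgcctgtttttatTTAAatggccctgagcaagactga
PB site 39717 bp after the start, intron 30, chr2:26464085-26464128: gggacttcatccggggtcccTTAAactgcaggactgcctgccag
PB site 4616 bp after the start, intron 2, chr2:26499186-26499229: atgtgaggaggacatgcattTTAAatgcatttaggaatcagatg
SB site 39358 bp after the start, intron 30, chr2:26464444-26464485: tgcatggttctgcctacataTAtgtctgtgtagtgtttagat
SB site 7363 bp after the start, intron 2, chr2:26496439-26496480: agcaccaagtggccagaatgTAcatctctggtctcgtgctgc
SB site 37774 bp after the start, intron 27, chr2:26466028-26466069: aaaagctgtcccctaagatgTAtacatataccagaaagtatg
SB site 39306 bp after the start, intron 30, chr2:26464496-26464537: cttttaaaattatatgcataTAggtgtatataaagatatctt

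The first of these sites was hit in 7 of the 42 PB samples, 6 tails and 1 tumour. The transposon pointed in the direction of Notch1 in 2 of these samples and against it in 5. The PB sites at -4623 bp and in intron 30 were hit in 4 tails each, and the other site of intron 2 in 2 tails and 1 tumour. A further PB site, 40755 bp after the start in intron 31, was also hit in 3 tails. The first SB site was hit in 5 of the 11 SB tails, always against the direction of the gene, and the remaining SB sites in 2 tails each. Of the 34 PB sites hit in Notch1, 14 were hit in at least 2 samples, and 11 of the 34 were hit in both orientations. The shared PB sites held 39 of 59 insertions. Of the 31 SB sites hit, 4 were hit in at least 2 samples and 1 in both orientations.

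Notch1 was hit in every tail of both systems and in few tumours. The 12 PB tails held 54 insertions, at a lowest rate of 0.330 per 1000, a median of 0.953 and a highest rate of 3.05, with a mean of 1.23 ± 0.839 (SD, n = 12). The 30 PB tumours held 5 insertions in 3 tumours, with a median of 0, a highest rate of 1.95 and a mean of 0.0733 ± 0.355 (SD, n = 30). By the gene column the groups overlapped through 1 tumour, PB tumour replicate 28 (a mesenteric lymph node), which held 3 of the 5 insertions among its 1542 and was exceeded by 2 tails. The other PB tumours with an insertion, replicate 9 (a lymph node) and replicate 20 (a mesenteric mass), were at 0.148 and 0.106 per 1000, below every PB tail.

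The 11 SB tails held 38 insertions, at a lowest rate of 0.219 per 1000, a median of 0.618 and a highest rate of 1.97, with a mean of 0.789 ± 0.487 (SD, n = 11). None of the 43813 insertions of the 11 SB tumours lay in Notch1, so the SB groups did not overlap. Against the limit for the SB tumours as a group, the mean rate of SB tails was at least 11.5-fold higher, the pooled rate at least 10.9-fold, and the mean rate of insertions with at least 10 reads at least 7.50-fold. In PB, the mean rate of tails was 16.8 times that of tumours. It was 141 times without PB tumour replicate 28, when only 2 insertions remained in tumours. Pooled over samples, the ratio was 35.2 with and 87.2 without this tumour. Of the 15716 symbols with an insertion, 2 were hit in all 12 PB tails and all 11 SB tails, Notch1 being 1 of them.

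**Figure D1:**
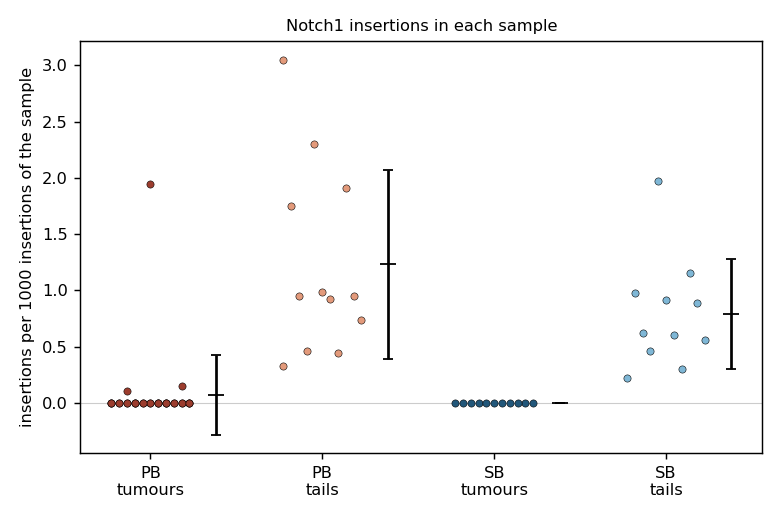
Notch1 insertions per 1000 insertions of the sample (vertical axis) in the 4 groups (horizontal axis), with 1 point per sample and the mean and SD beside the points. Every tail lies above 0, from 0.219 to 3.05 per 1000, while the SB tumours lie at 0 and 3 of the 30 PB tumours lie above it.

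The order of tails and tumours was the same within each name form that held both. Within joined names the mean rate was 0.722 per 1000 in 5 PB tails against 0.0115 in 22 PB tumours, and 0.623 in 7 SB tails against 0 in 11 SB tumours. Within separated names it was 1.60 in 7 PB tails against 0.243 in 8 PB tumours, 7 tails and 1 tumour being hit, and 1.08 in 4 SB tails, with no SB tumour of that form to compare. By RefSeq gene bodies, Notch1 had 51 insertions in PB tails, 7 in PB tumours, 38 in SB tails and 0 in SB tumours. Under this assignment 5 PB tumours were hit, and PB tumour replicate 26 (0.324 per 1000) also lay above the lowest PB tail, replicate 2 (0.298). The assignments differed because the gene column extends Notch1 upstream of the RefSeq start, where 4 PB tail insertions and 1 of a PB tumour lay, and because 4 insertions in the last exon are listed as 0610009E02Rik.

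The 95 TTAA sites of Notch1 would have received 0.353 insertions in PB tails had the insertions of chromosome 2 spread evenly over its TTAA sites, and 51 were observed, a ratio of 145. In SB tails 38 were observed and 0.533 expected from the TA sites, a ratio of 71.4. The median ratio over genes with at least 1 expected insertion, which Notch1 itself did not have, was 1.02 in PB tails and 0.975 in SB tails. In PB tumours the ratio was 6.26, from 7 observed and 1.12 expected, and in SB tumours 0 were observed and 0.499 expected.

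The 3 Notch1 insertions of PB tumour replicate 28 lay in intron 2, at 2097, 2927 and 4616 bp after the start. All of them fell on target sites that were also hit in PB tail replicate 7. These samples shared 5 target sites over all chromosomes, so that 3 of the 5 were in Notch1, and each of the 3 had the same orientation in both. The sample titles of the pair carry the same number after the prefix IMPB, which no other title of the series has, with different letters after it. The tail had 5, 188 and 3 reads at these sites. The tumour's insertions had 160, 68 and 126 reads and ranked 99th, 629th and 191st among its 1542 insertions. Replicate 28 shared Notch1 sites with 6 of the 12 PB tails, and replicates 9 and 20 with none. Whether cells or DNA of another sample were in this library was not tested.

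Along the gene, insertions in tails lay mostly in introns, which also hold most of its TTAA and TA sites. Of the 92 tail insertions, 28 were in intron 2, the longest intron, at 19 different sites in 17 of the 23 tails. These were 21 in PB tails and 7 in SB tails. Intron 2 holds 34 of the 95 TTAA sites and 529 of the 1593 TA sites of the gene. Intron 30 held 18, at 8 sites in 14 tails, which were 8 in PB tails and 10 in SB tails. Intron 30 holds only 6 of the TTAA sites and 50 of the TA sites. Intron 31, with 5 TTAA and 52 TA sites, held 9 insertions. Intron 27, with 5 TTAA and 38 TA sites, held 8. Exons 4 and 28 held 1 insertion each, and 4 lay upstream of the RefSeq start. Intron 2 follows codon 46 of 2531, and intron 30 follows codon 1869. The last exons encode the transmembrane and intracellular parts of the receptor, and the early exons encode extracellular repeats.

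**Figure D2:**
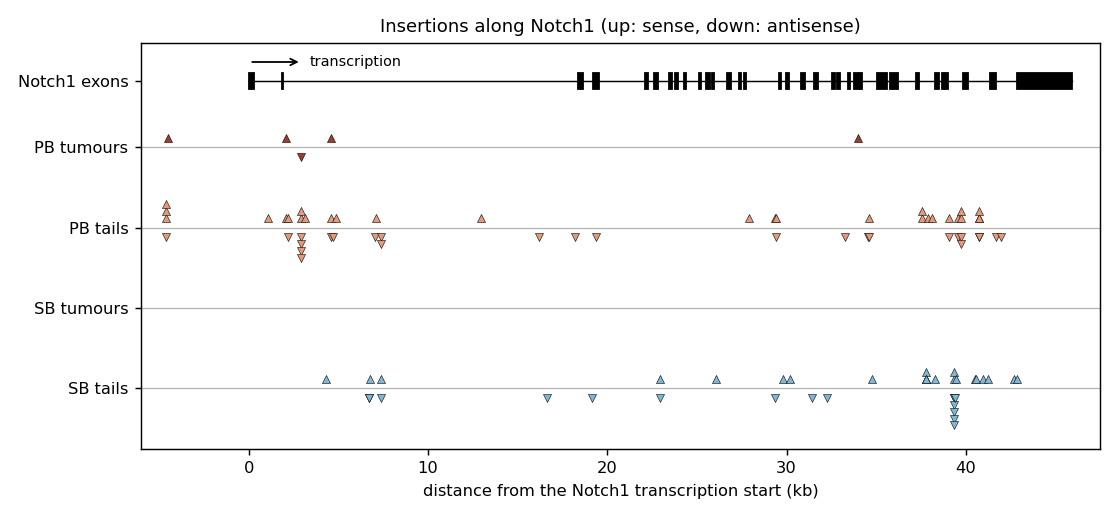
Insertions along Notch1 by distance from its RefSeq transcription start (horizontal axis, kb), with 1 triangle per insertion and sample in a row for each group; triangles above a line point with the gene (sense), those below against it (antisense), stacked where a site recurs, and black boxes mark the 34 exons. Intron 2 holds 21 insertions of PB tails and 7 of SB tails, intron 30 holds 8 and 10, and SB tumours have none.

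The shares at the ends of the gene were as follows, and the intervals of the systems overlapped at both ends. In SB tails, 21 of the 38 insertions (55.3%, 95% Wilson interval 39.7 to 69.9) lay in the last 10 kb of the gene, which holds 22.2% of its TA sites. In PB tails 19 of 50 insertions within the gene (38.0%, 25.9 to 51.9) lay there, with 30.5% of the TTAA sites. The first 10 kb held 38.0% of the PB tail insertions (25.9 to 51.9) and 29.5% of the TTAA sites, and 15.8% of those of SB (7.44 to 30.4) and 22.2% of the TA sites. The stretch between held 24% in PB (14.3 to 37.4) against 40.0% of the sites, and 28.9% in SB (17 to 44.8) against 55.6%. Insertions of 1 tail are not independent, so these intervals are too narrow for a comparison over mice.

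**Figure D3:**
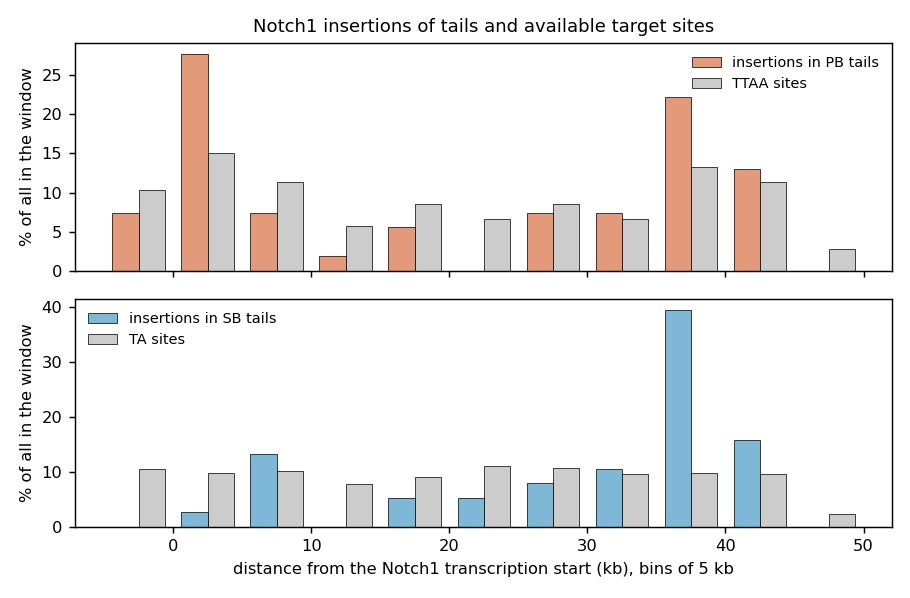
Share of the Notch1 insertions of PB tails (top) and SB tails (bottom) in bins of 5 kb by distance from the transcription start (horizontal axis, kb), beside the share of the TTAA or TA sites in grey, each as a percentage over all bins (vertical axis). The bin from 35 to 40 kb held 12 PB and 15 SB insertions, and the bin from 0 to 5 kb held 15 PB insertions and 1 SB insertion.

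Averaged first within each tail, the position along the gene (0 at the RefSeq transcription start, 100 at the end, below 0 for the upstream insertions of PB) was 65.3 ± 23.4 in SB tails (SD, n = 11) and 40.1 ± 26.7 in PB tails (SD, n = 12). The difference of 25.1 had p = 0.0279 in a two-sided permutation test and did not pass after adjustment over the 8 tests made on position, orientation and reads of Notch1 (Benjamini-Hochberg p = 0.223). With the upstream insertions left out, the PB mean was 44.0 ± 26.1 and the difference 21.3 (permutation test, p = 0.0549). The mean position of the available sites within the gene was 50.002 for TTAA and 50.9 for TA. Within joined names the difference was 28.5 (exact permutation test, p = 0.111). PB tails and the 3 PB tumours with an insertion differed by 16.4 (exact permutation test, p = 0.435).

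Insertions lay in both orientations. In PB tails 28 of 54 were sense, 51.9% (38.9 to 64.6), and in SB tails 22 of 38, 57.9% (42.2 to 72.1). Neither interval excluded 50%. Among all genes with at least 20 insertions the interval excluded 50% for 5.88% of genes in PB tails and 7.27% in SB tails. In PB tumours 4 of 5 were sense, with 5.51% of genes there past the same rule. The mean share per sample was 88.9% ± 19.2 in these 3 tumours and 48.7% ± 30.0 in the 12 PB tails (exact permutation test, p = 0.0571, adjusted p = 0.229), and SB tails had 61.6% ± 30.5 (n = 11, permutation test against PB tails, p = 0.316). The sense direction was taken from the deposited strand, whose convention for the transposon's own direction was not checked here.

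On average, the reads behind Notch1 insertions were near the middle of those of their sample, but single insertions spread widely. The read percentile is the rank of an insertion by reads within its sample, scaled from 0 (few reads) to 100 (most), with ties averaged. Insertions tied at the fewest reads therefore lie above 0. Single Notch1 insertions of tails ranged from 2.79 (SB tail replicate 5) to 99.4 (PB tail replicate 7). Averaged first within each tail, the percentile was 56.4 ± 15.1 in PB tails (SD, n = 12, lowest 28.9, median 58.4, highest 74.4). In SB tails it averaged 57.4 ± 18.5 (SD, n = 11, lowest 12.5, median 64.9, highest 73.4). The mean lay above 50 in 8 of 12 PB tails and 8 of 11 SB tails, which did not pass an exact sign-flip permutation test (p = 0.168 and 0.215, adjusted p = 0.430 for both). Pooled over the insertions of a group, the mean percentile of Notch1 was 56.1 in PB tails and 54.3 in SB tails. Among genes with at least 10 insertions in the group, 90 of 457 in PB tails and 127 of 429 in SB tails had a higher pooled mean. No Notch1 insertion was among the 10 most covered of a sample, and the best rank was 17, with 188 reads at the first PB site in PB tail replicate 7.

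**Figure D4:**
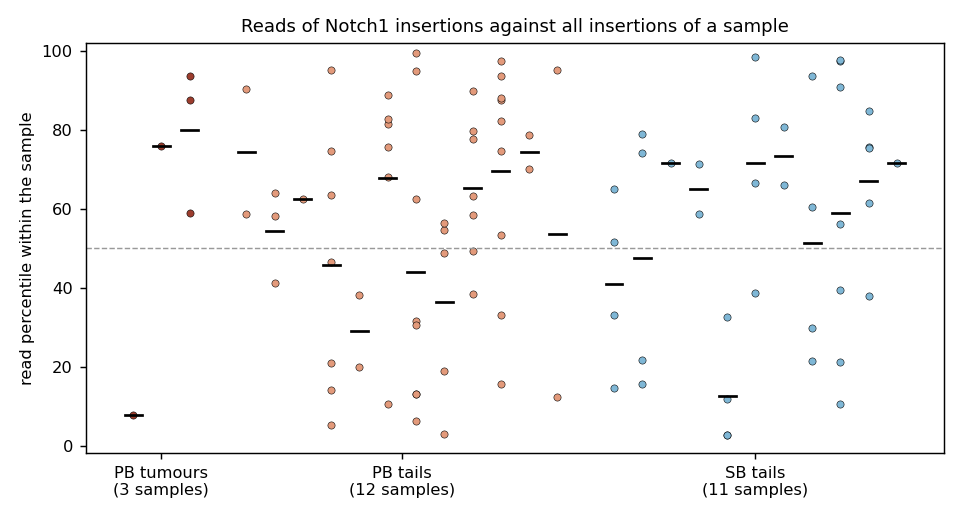
Read percentile of each Notch1 insertion among all insertions of its sample (vertical axis, dashed line at 50), with 1 column of points per sample that had an insertion, in 3 PB tumours, 12 PB tails and 11 SB tails, and the sample's mean as a bar. The means of the tails spread from 12.5 to 74.4 around the line.

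The excess of tail over tumour was then followed through the other genes with edgeR's quasi-likelihood test on insertions per sample, adjusted by Benjamini-Hochberg over all genes tested. In PB, 4 of the other 9 genes had the 10 insertions needed for the test, and 1 of them, Maml3, was called, higher in tails. Of all 3306 genes tested 4.45% were called, 2.3% as higher in tails and 2.15% as higher in tumours. In SB, 1 of the 9 genes, again Maml3, could be tested, and it was not called (0 with an unadjusted p below 0.05, and 0 called by DESeq2), with 0.801% of 1124 genes called by edgeR and 0.178% by DESeq2. The difference between the systems passed for none of the 4 genes tested for it (0.0% of 4292 genes called, no member with an unadjusted p below 0.05, and 0 called by DESeq2).

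Maml3, a MAML coactivator whose gene spans 418 kb, was hit in 9 of 12 PB tails with 23 insertions and in 18 of 30 PB tumours with 26. The rate was lowest at 0, with a median of 0.470 and a highest value of 0.951 per 1000 in PB tails, and lowest at 0, with a median of 0.175 and a highest value of 1.32 in PB tumours. The groups overlapped widely, and the highest rate was that of a tumour. The log2 difference of tails over tumours was 1.34 (SE 0.43, edgeR, adjusted p = 0.0457). This call lay at the threshold. It was lost when any 1 of 20 of the 42 samples was left out, namely PB tail replicates 1, 2, 4, 5, 6, 10 and 11 and PB tumour replicates 1, 2, 6, 11, 12, 17, 20, 22, 23, 27, 28, 29 and 30, with adjusted p from 0.0504 to 0.176, the highest without PB tail replicate 4, which held 7 of the 23 insertions. It was also lost with DESeq2 (adjusted p = 0.0999, with 2.6% of genes called) and when only insertions of at least 10 reads were counted (edgeR, adjusted p = 0.158, with 7.95% of 1383 genes called).

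In SB, Maml3 was hit in 9 of 11 tails with 14 insertions and in 4 of 11 tumours with 5. Its rate had a median of 0.280 and a highest value of 0.666 per 1000 in tails and a median of 0 and a highest value of 0.448 in tumours. These groups overlapped too. The log2 difference was 1.10 (SE 0.67, edgeR, adjusted p = 0.616). Within joined names the mean rate of Maml3 was 0.593 per 1000 in PB tails and 0.234 in PB tumours, and 0.216 in SB tails and 0.106 in SB tumours. No target site of Maml3 recurred within a group, the 23 PB tail insertions lying at 23 sites between 22137 and 380163 bp after the start. Maml3 offers 1903 TTAA sites and Notch1 95, so recurrence in these genes cannot be compared directly. With the site expectation as reference, Maml3 had 3.46 times the expected number in PB tails, 1.24 times in PB tumours, 1.88 times in SB tails and 0.819 times in SB tumours.

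Maml2, the second large MAML gene (413 kb), depended on the assignment. The gene column names it only for insertions in the later part of its RefSeq body and calls 71 insertions of the body intergenic. By RefSeq it held 57 insertions in 24 of 30 PB tumours and 24 insertions in all 12 PB tails, with rates from 0.147 to 0.983 per 1000 in tails and from 0 to 1.95 in tumours. The log2 difference in PB was 0.41 by RefSeq body (edgeR, adjusted p = 0.606) and -0.21 by gene column (adjusted p = 0.903). Within joined names the mean rate was 0.485 per 1000 in PB tails and 0.345 in PB tumours, and within separated names 0.563 and 0.691, the opposite order. SB tails had 5 insertions in it and SB tumours 3. Maml1 had 6 insertions in PB tumours by RefSeq body, 2 in PB tails, 1 in SB tails and 0 in SB tumours, too few for the test. One of them, in exon 5 of PB tumour replicate 4, had 707 reads and ranked 3rd of its sample, and the table lists it as AL646002.1. It was the 1 insertion of the 10 genes among the 10 most covered of a sample, and it was singled out after its values were seen.

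Rbpj, which binds DNA and recruits the Notch intracellular domain, pointed the other way in number. It was hit in 19 of 30 PB tumours with 28 insertions and in 2 of 12 PB tails with 2. Rates reached 0.532 per 1000 in PB tumours, with a median of 0.137, and 0.330 in PB tails, with a median of 0. The log2 difference was -1.59 (SE 0.67, edgeR, p = 0.0168, adjusted p = 0.139), so the difference did not pass. In SB, 5 of 11 tumours held 7 insertions and 2 of 11 tails held 2, too few to test. The 7 insertions of SB tumours, from 5 mice and too few for the orientation comparison over genes, were antisense to Rbpj. In PB tumours 18 of 28 were antisense (sense share 35.7%, 20.7 to 54.2). Within joined names the log2 difference of Rbpj in PB was -1.60 (edgeR, adjusted p = 0.404), and too few insertions remained for a test within separated names. They lay between 1722 and 46888 bp from its start in SB tumours and between 3010 and 99656 bp in PB tumours.

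Fbxw7, the substrate receptor of a ubiquitin ligase for Notch and other proteins, was seen by RefSeq body only. It was hit in 24 of 30 PB tumours with 56 insertions and in 7 of 12 PB tails with 11. In SB it was hit in 8 of 11 tumours with 17 insertions and in 4 of 11 tails with 5. Median rates were 0.315 per 1000 in PB tumours (highest 2.64), 0.201 in PB tails (highest 0.874), 0.399 in SB tumours (highest 0.824) and 0 in SB tails (highest 0.466). The groups overlapped in both systems. The log2 difference was -0.59 in PB (SE 0.47, edgeR, adjusted p = 0.539) and -1.68 in SB (SE 0.64, unadjusted p = 0.00846, adjusted p = 0.246), with 4.37% of 3711 and 0.754% of 1193 genes called under this assignment, 2.07% and 0.587% as higher in tumours. The order held within joined names, with mean rates of 0.441 per 1000 in PB tumours and 0.114 in PB tails, but not within separated names, with 0.278 and 0.292. Insertions in PB tumours were sense in 28 of 56, and all 56 were intronic.

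Of the other receptors, Notch2 held 25 insertions in 17 of 30 PB tumours, 5 in 3 of 12 PB tails, 3 in SB tumours and 4 in SB tails. The highest rates were 0.649 per 1000 in PB tumours and 0.762 in PB tails, with medians of 0.123 and 0. The log2 difference in PB was -0.50 (SE 0.58, edgeR, adjusted p = 0.692). The 5 insertions of PB tails were all in tails with separated names, so the log2 difference turned with the form, at -2.99 within joined names (edgeR, unadjusted p = 0.0163, adjusted p = 0.257) and 0.27 within separated names (adjusted p = 0.905). Notch3 had 2 insertions in PB tumours, 1 in PB tails and 1 in SB tumours by RefSeq body. Notch4, the shortest of the receptor genes with 45 TTAA sites, had 0 of 0.561 expected in PB tumours and fewer expected in every other group, so its lack of insertions was not informative at this depth. The ligand gene Jag1 had 5 insertions in 5 PB tumours, 2 in 2 PB tails and none in SB.

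**Figure D5:**
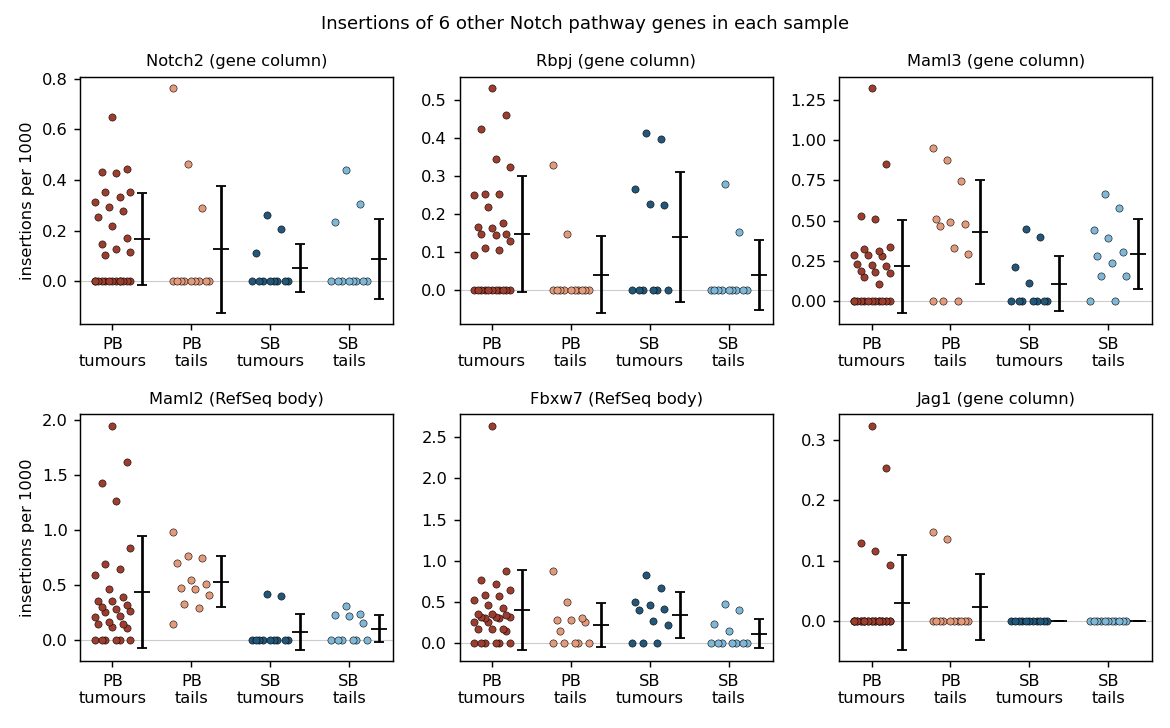
Insertions per 1000 insertions of the sample (vertical axes, on scales of their own) for Notch2, Rbpj, Maml3, Maml2, Fbxw7 and Jag1 in the 4 groups, with 1 point per sample and the mean and SD beside the points. Tails and tumours overlap in every panel where both have insertions, including Maml3, whose medians are 0.470 in PB tails and 0.175 in PB tumours.

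Against the number of target sites in each RefSeq gene body, the genes above expectation differed between tumours and tails. In PB tumours 4 of the 9 genes other than Notch1 were called (one-sided Wald test, Bonferroni over all genes, at least 3 samples and 5% of samples), where 2.98% of 39361 genes were called, or 6.95% of the 13362 with at least 1 expected insertion. These were Fbxw7 (3.80 times expected, 56 against 14.7), Rbpj (3.47 times), Notch2 (3.45 times) and Maml2 (2.61 times). Ratios as high as theirs were found for between 922 and 2114 of the 13362 genes. The 4 genes had from 7.25 to 21.8 expected insertions, so the share over genes with at least 1 is not matched to them. Fbxw7 and Maml2 were still called when only insertions of at least 10 reads were counted. None of the 4 was called when a gene was counted once per sample, but the expected number was still that of all insertions. The count could then not exceed the number of samples, so that setting does not show whether these calls hold. In PB tails 2 of 9 were called, with 0.765% of genes called, or 2.79% of the 5478 with at least 1 expected, namely Maml2 (3.64 times) and Maml3 (3.46 times). Fbxw7 (2.36 times) was called there with Benjamini-Hochberg in place of Bonferroni. In SB tumours 1 of 9 was called, with 0.21% of 44254 genes called, or 1.36% of the 4869 with at least 1 expected, which was Fbxw7 (5.01 times, 17 against 3.39). Rbpj there had 3.79 times the expected number but did not pass (adjusted p = 1.0). In SB tails none of 9 was called by this test or by an exact Poisson test, with 0.0881% of genes called, or 0.502% of the 5583 with at least 1 expected, and the largest ratio was 1.88 for Maml3 (unadjusted p = 0.00904).

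Expectation here follows the number of sites alone, and the part of chromatin or of sequence preference in these ratios was not tested. The Wald test pooled the insertions of a group, so its p-values do not cover the spread between mice. A call in 1 group and not in the other is no test of their difference, which the edgeR results give.

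A list of 52 further pathway genes (ligands, cleavage enzymes, glycosyltransferases, turnover, nuclear partners and targets) held 39 genes with an insertion in PB and 25 in SB. Of the 13 tested in PB, 0 were called in either direction by edgeR or DESeq2, 4 had an unadjusted p below 0.05 (652 of all 3306 genes), and 2 were above and 11 below a log2 difference of 0. Their median was -1.0, beside -0.20 over all 3306 genes. Of the 7 tested in SB, 0 were called by edgeR or DESeq2, 1 had an unadjusted p below 0.05 (101 of all 1124 genes), and the median was -0.55 beside -0.01.

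The list genes with the most insertions were Crebbp, Adam10 and Ncor1 in PB and Crebbp, Itch and Adam10 in SB. Crebbp, a histone acetyltransferase that can join the Notch complex, had 58 insertions in PB tumours, 6 in PB tails, 13 in SB tumours and 5 in SB tails (log2 difference -1.41 in PB, adjusted p = 0.100, and -1.35 in SB, adjusted p = 0.504, edgeR). Adam10, the protease that makes the first ligand-dependent cut, had 39, 10, 5 and 8 (log2 difference -0.21 in PB and 0.39 in SB). Ncor1, a corepressor that RBPJ can recruit, had 32, 3, 5 and 6 (-1.35 in PB and 0.00085 in SB). Itch, a ubiquitin ligase of the pathway, had 16, 1, 10 and 4 (-1.45 in PB and -1.25 in SB).

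Outside the pathway, the genes whose insertions per 1000 followed Notch1 most closely over the 64 samples, among 1289 genes with at least 30 insertions, were Fat1 (Pearson r = 0.585), Trp63 (0.544), Zfhx3 (0.542), Tprg (0.525) and Myof (0.475). Samples share depth and tissue in this measure, and r is given as a description. Trp63, the p63 factor of stratified epithelia, had insertions in all 12 PB tails (43 insertions) and 7 of 11 SB tails (11), with 16 in PB tumours and 5 in SB tumours. Fat1, an atypical cadherin, had 26 insertions in PB tails, 10 in SB tails, 9 in PB tumours and 3 in SB tumours. In SB the others had no more than 4 insertions in tails, with 2 in tails and 5 in tumours for Zfhx3, 2 and 3 for Tprg, and 4 and 1 for Myof. In PB they had 11 in tails and 12 in tumours, 19 and 6, and 10 and 17. PB tails held 48124 insertions in all and PB tumours 156899, so these counts do not compare as rates. Of the 9 other genes, 3 had at least 30 insertions in the table's assignment: Notch2 and Maml3 had r = 0.178 and 0.170 with Notch1, and Rbpj had r = -0.361.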

How the data were processed

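Per the labels and the table itself, the authors deposited read counts that were not normalized, with a position (mm10) and strand per insertion, for 64 samples. Groups were taken from the sample labels. Both transposon ends went through splinkerette PCR separately before paired-end sequencing. The aligner, the insertion caller and the read filters are not given in the sources used here. A further per-sample column (1), a normalized coverage, was not used. Some symbols of the gene column have turned into dates, and PB and SB lines name some of the same loci differently.

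The members and lists were chosen with earlier results of these data known. Genes were named by rule: the 10 members, pathway genes called or among the 3 most hit of a system, and the 5 genes outside the pathway most correlated with Notch1. Positions were moved to the nearest motif within 5 bp. Chromosomes X, Y and 14 (the donor chromosome by insertion density) were left out. Insertions per gene and sample were compared with edgeR (quasi-likelihood, total of insertions as library size, at least 10 insertions, log2 values as tails over tumours, with an approximate SE from the test statistic), and with Wald tests against site numbers. Read percentiles, orientation and position of Notch1 were compared by two-sided permutation tests over samples (100000 resamples, or exact), of which 5 of 8 were added after the data were seen. The planned comparisons of SB tumours and tails in these measures were not possible without Notch1 insertions in SB tumours. Replicates are separate mice, 1 sample each. Scripts were tested on simulated data. Python 3.11.15, numpy 2.4.6, pandas 2.3.3, scipy 1.17.1, matplotlib 3.10.9, R 4.3.3, edgeR 4.0.16 and DESeq2 1.42.0 were used.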

Additional observations from a re-analysis of the deposited data

How the results depend on the processing

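No paired analysis was possible because each mouse gave 1 sample and replicate numbers are only names in order of deposition. The call of Maml3 in PB, 1 of the other 9 genes, became 0 with DESeq2 (adjusted p = 0.0999), TMM, only joined names, only separated names, no filter, presence per sample, reads of at least 10, totals with all chromosomes, and RefSeq bodies with reads of at least 10 (added after seeing the data), and ranged from 0 to 1 with 1 sample left out. It held by RefSeq bodies, where the counts of Maml3 are the same as by the gene column, and with the name form as a covariate. All genes called in PB numbered 147, against 86 with DESeq2, 33 with joined names, 28 with separated names, 71 without a filter, 1 by presence and 110 with reads of at least 10. In SB, 9 genes were called, against 2 with DESeq2, 0 by presence and 16 with all chromosomes. TMM moved the PB split from 76 higher in tails and 71 in tumours to 45 and 126, and totals with all chromosomes to 70 and 86. In SB no other member was called under any setting, left-out samples included (0 to 0).

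Site expectation called 2 members with reads of at least 10 in PB tumours (4 otherwise) and 1 in PB tails (2 otherwise). By presence it called 0 in PB tumours, PB tails and SB tumours. The expected number there still counted all insertions, so this setting does not show whether the calls hold. Benjamini-Hochberg added Rbpj in SB tumours (2 instead of 1) and Fbxw7 in PB tails (3 instead of 2). The log2 ratio of Notch1 rates, tails over tumours, was 4.07 in PB and at least 3.53 in SB. It was 5.97 in PB with joined names, at least 1.80 in SB by presence, and from 3.87 to 7.14 in PB and from at least 3.20 to at least 3.63 in SB with 1 sample left out, the 7.14 without PB tumour replicate 28. The difference in position between tails of the systems was not below the unadjusted threshold with joined names (28.5, exact permutation test, p = 0.111) or with upstream insertions left out (21.3, permutation test, p = 0.0549, chosen after seeing the data). With reads of at least 10, 1 PB tumour with Notch1 remained, so those comparisons of PB gave no value. At this depth 4 of the 9 members could be tested in PB and 1 in SB by the gene column, and 5 and 2 by RefSeq bodies, Fbxw7 only by the latter.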
